A study of Mus musculus with 4 samples.

Results

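The high mobility group (HMG) genes are described here by their spots on 4 arrays of spotted cDNA clones. Members were the clones that the deposited table assigns, by symbol or gene ID, to Hmgn1, Hmgn2, Hmgn3, Hmgb1, Hmgb2, Hmgb3, Hmga1 or Hmga2. This gave 13 of 16825 clones, for 7 of the 8 genes, and no clone was matched to Hmgn3. The family was chosen by the measured difference of Hmgn2 between the siRNA groups, which was the strongest among the genes named in an earlier analysis of these arrays, so its values are a description and no test is drawn from them. Clones were kept apart, because several clones of a gene are separate measurements of its mRNA on the same RNA and not replicates of a condition.

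Cells of the C2C12 line, an established line of mouse myoblasts (muscle precursor cells), had been transfected while proliferating with siRNA against HuR (2 arrays) or with control siRNA (2 arrays). Both groups had thus gone through transfection. HuR, the product of Elavl1, attaches to AU-rich stretches of mRNAs and can stabilise them or alter their translation, and the comparison asks which transcripts differ when it is targeted. Whether arrays sharing an siRNA stem from different cultures is not stated in the labels. Errors and p-values here thus reflect spread between arrays only, which may be technical. The fit draws the variance of each clone towards that of all clones, so an SE is not the spread of that clone alone. RNA was labelled with 33P, and each spot has a single signal.

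HMG proteins are abundant non-histone proteins of chromatin and fall into 3 families. HMGN proteins bind the nucleosome core and compete with linker histone H1, which loosens the fibre. HMGB proteins carry a pair of HMG boxes and an acidic tail, bend DNA, and in the case of HMGB1 can also leave the cell and act as a signal. HMGA proteins bind the minor groove of AT-rich DNA through AT-hooks and are prominent in embryonic and proliferating cells. In mouse muscle cells HuR has been described to bind Hmgb1 mRNA and to favour its translation, a step that RNA abundance does not measure.

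The deposited values are z-scores, so 1 unit is 1 SD of all spots in an array section of 8448 spots, and 0 is the section's mean. They are not fold changes, and the level of a clone cannot be set against that of another clone. The targeted gene was not detectably lower. Its clones lay at -0.20 and -0.21 on the arrays labelled HuR siRNA against -0.12 and -0.20 on the control arrays, and at -0.51 and -0.39 against -0.50 and -0.46. The differences were -0.045 (SE 0.048) and 0.03 (SE 0.058). Khsrp, which encodes the RNA-binding partner KSRP, differed by -0.015 (SE 0.052). Both clones of Npm1, which encodes nucleophosmin (NPM), were higher on the arrays labelled HuR siRNA, by 0.205 (SE 0.057) and 0.33 (SE 0.079). The limma adjusted p was 0.99 for each. The deposited table carries NPM siRNA in its name, while its columns and the sample labels name HuR. The groups are therefore called here by their labels, and every direction rests on them. Which siRNA the arrays received was not tested.

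Hmgn2 (gene ID 15331, placed on chromosome 4 by the deposited table) encodes the nucleosome-binding protein formerly called HMG-17, and it had 1 clone, BG078806. The clone was at -0.15 and -0.13 on the arrays labelled HuR siRNA, against 0.40 and 0.39 on the control arrays. Both HuR siRNA arrays thus lay below the section mean and both control arrays above it, with a wide gap between the groups. HuR siRNA arrays averaged -0.14 ± 0.014 and control arrays 0.395 ± 0.0071 (SD, n = 2 arrays each). The groups thus differed by -0.535 (SE 0.040, 95% interval -0.643 to -0.427, limma adjusted p = 0.61), which did not pass the threshold. Of all clones, 177 (1.05%) differed by at least this much, 74 of them downwards.

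The agreement between arrays of a group was close for this clone. The gap between the 2 arrays was 0.02 with HuR siRNA and 0.01 with control siRNA, against a median of 0.06 in each group over all clones. There were 597 clones whose gaps were no larger than these in both groups. Their median absolute difference between the groups was 0.03. Hmgn2 differed most among the 597, and the next largest absolute difference was 0.31. These values chose the gene and are given as a description.

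The Hmgn2 spot was printed in grid 304 of the first section. The 21 other clones of that grid had differences of -0.19 to 0.23 with a median of 0.02, and the 7 clones in directly adjoining positions lay between -0.045 and 0.065. Its cDNA came from source plate 32, whose 95 other clones had a median difference of 0.03. They ranged from -0.39 to 0.69, the highest being further from 0 than Hmgn2 in the other direction, and 1 was lower and 3 were higher at an unadjusted limma p under 0.05. The difference of Hmgn2 was -0.5225 after removal of grid medians and -0.5475 after removal of plate medians. Its limma adjusted p was 0.94 and 0.997 in these fits, against 0.61 in the reported fit. Hmgn2 had the lowest difference both in its grid and on its plate. Since it was chosen for a large difference, such a rank was likely beforehand and is a description. Whether print position or source plate bears on the difference was not tested.

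**Figure D1:**
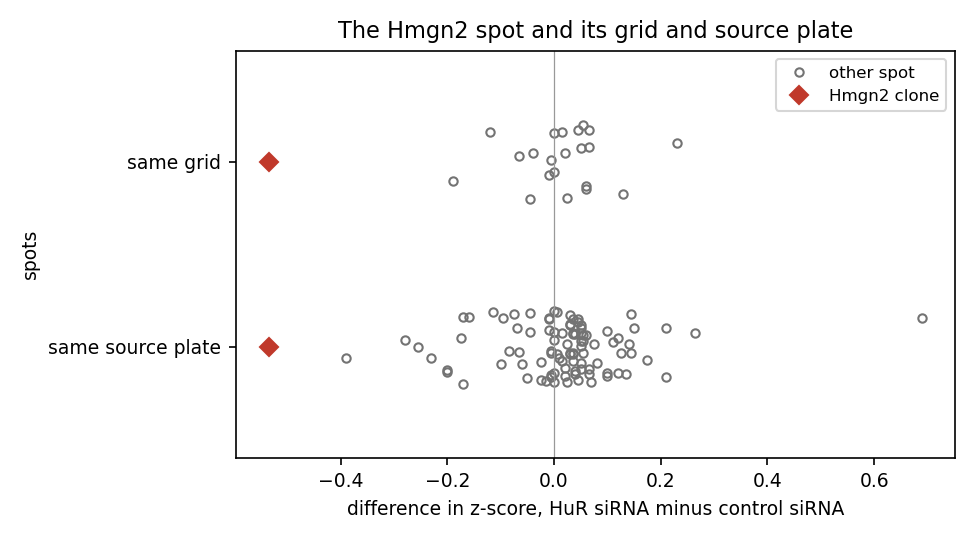
Difference in z-score (HuR siRNA minus control siRNA, horizontal axis) of the Hmgn2 clone (red diamonds) and of the other clones (open circles) of the same grid, in the upper row, and of the same source plate, in the lower row. Hmgn2 at -0.535 lies to the left of the 21 other clones of the grid (-0.19 to 0.23) and of the 95 other clones of the plate (-0.39 to 0.69). Vertical scatter within a row carries no value. Hmgn2 was chosen by this difference, so its place in each row is a description.

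No second clone of Hmgn2 was present to set beside this spot. RefSeq (GRCm38.p6) lists 2 pseudogenes named after Hmgn2, and a cDNA spot cannot separate near-identical transcripts. Hmgn1 (gene ID 15312, chromosome 16), which encodes the related nucleosome-binding protein formerly called HMG-14, had similar values in both groups. Its clone BG086014 was at -0.31 and -0.34 with HuR siRNA and at -0.34 and -0.37 with control siRNA. The groups met at -0.34. It differed by 0.03 (SE 0.042), with an interval of -0.083 to 0.143 and an adjusted p of 0.99 in the limma fit.

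**Figure D2:**
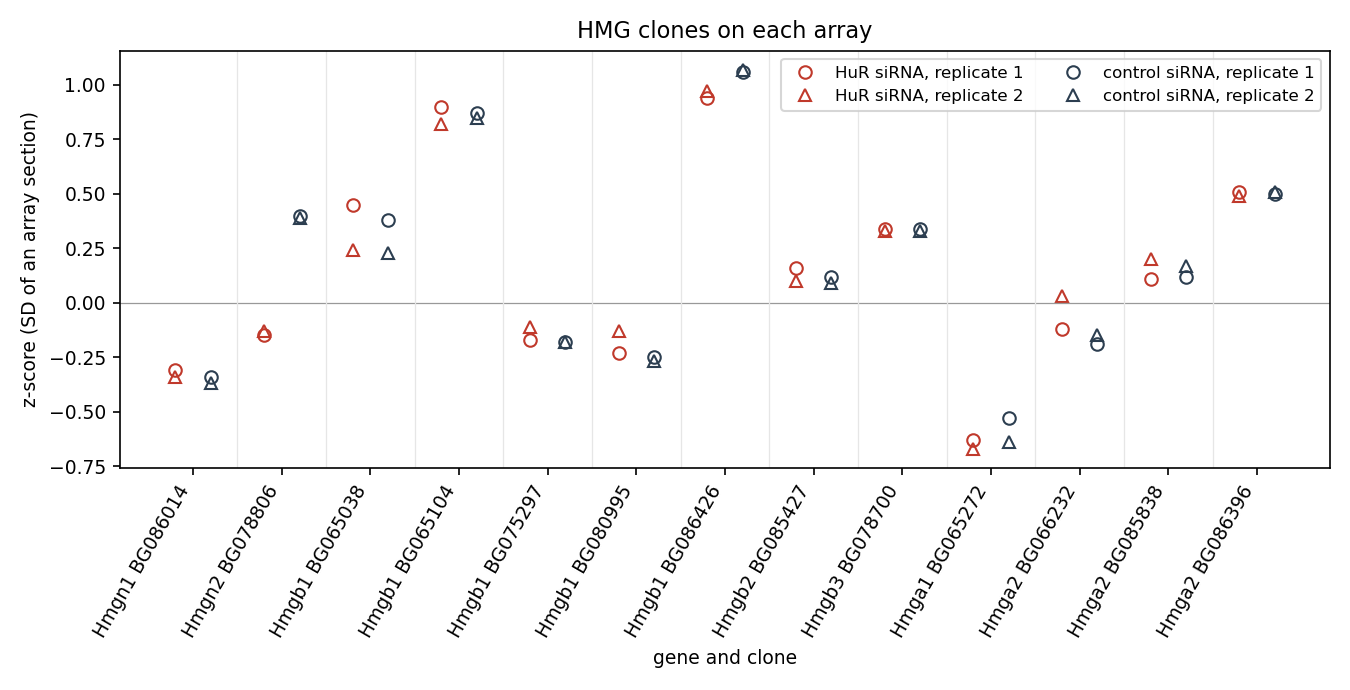
The z-score of each of the 13 HMG clones on each array (vertical axis, in SD of an array section). For each clone the HuR siRNA arrays (red) stand left of the control siRNA arrays (dark), with circles for replicate 1 and triangles for replicate 2. The groups lie far apart for Hmgn2 (-0.15 and -0.13 against 0.40 and 0.39) and close together or mixed for the other clones.

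Hmgb1 (gene ID 15289, chromosome 5) encodes the DNA-bending protein HMGB1 and was printed as 5 clones on 5 different source plates. Clone BG086426 was at 0.94 and 0.97 with HuR siRNA and at 1.06 and 1.07 with control siRNA. Both HuR siRNA arrays lay lower, by -0.11 (SE 0.041, 95% interval -0.22 to -0.00021, limma adjusted p = 0.99), which did not pass the threshold. With grid medians removed the difference was -0.0475. Of the other 4 Hmgb1 clones, none lay lower on average.

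Clone BG080995 had z-scores of -0.23 and -0.13 with HuR siRNA against -0.25 and -0.27 with control siRNA, a difference of 0.08 (SE 0.052). Clone BG075297 had -0.17 and -0.11 against -0.18 and -0.18, a difference of 0.04 (SE 0.044). On both of these clones the HuR siRNA arrays lay above the control arrays. Clone BG065104 had 0.90 and 0.82 with HuR siRNA against 0.87 and 0.85 with control siRNA, so the control arrays fell between the HuR siRNA arrays and the means were equal at 0.86.

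The remaining Hmgb1 clone, BG065038, was parted by replicate number and not by siRNA. It was at 0.45 and 0.24 with HuR siRNA and at 0.38 and 0.23 with control siRNA. Both arrays numbered 1 were higher than both arrays numbered 2, by 0.21 and 0.15, while the siRNA groups differed by 0.04 (SE 0.096). These were the largest gaps between arrays of a group among the HMG clones. Over the 5 clones of Hmgb1 the differences ran from -0.11 to 0.08 with a median of 0.04, with 3 clones higher, 1 lower and 1 equal. RefSeq lists 13 pseudogenes named after Hmgb1, and which transcripts each clone captures is not known from the deposited table.

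Hmgb2 (chromosome 8), whose protein bends DNA like HMGB1 and is typical of dividing cells, was measured by clone BG085427. It was at 0.16 and 0.10 with HuR siRNA and at 0.12 and 0.09 with control siRNA. The groups overlapped and differed by 0.025 (SE 0.045), within an interval of -0.097 to 0.147 and with an adjusted p of 0.99 in limma, and by 0.105 with grid medians removed. The gene ID that the table gives for this clone, 15352, is now that of a pseudogene in RefSeq, whereas its symbols, description and chromosome name Hmgb2. Hmgb3 (gene ID 15354, chromosome X), the third member with HMG boxes, was at 0.34 and 0.33 in both groups on clone BG078700. Its difference was 0 (SE 0.040, 95% interval -0.107 to 0.107), and -0.09 with source plate medians removed.

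Hmga1 (gene ID 15361, chromosome 17) encodes an AT-hook protein, and RefSeq lists 1 coding copy named after it, Hmga1b. Its clone BG065272 was at -0.63 and -0.67 with HuR siRNA and at -0.53 and -0.64 with control siRNA. The HuR siRNA array numbered 1 was above the control array numbered 2, so the groups overlapped. They differed by -0.065 (SE 0.056), within an interval of -0.216 to 0.086 and with an adjusted p of 0.99 in limma.

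Hmga2 (gene ID 15364, chromosome 10), the AT-hook gene known for its role in myoblast proliferation in mouse, had 3 clones. Clone BG066232 was at -0.12 and 0.03 with HuR siRNA and at -0.19 and -0.15 with control siRNA, so both HuR siRNA arrays lay higher. Its difference of 0.125 (SE 0.066, 95% interval -0.052 to 0.302, limma adjusted p = 0.99) was the highest of any HMG clone, and the gap of 0.15 between its HuR siRNA arrays exceeded it. Without HuR siRNA replicate 2 it was 0.05, and without HuR siRNA replicate 1 it was 0.2.

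The other clones of Hmga2 had smaller differences. Clone BG085838 was at 0.11 and 0.20 with HuR siRNA against 0.12 and 0.17 with control siRNA, a difference of 0.01 (SE 0.053). Clone BG086396 was at 0.51 and 0.49 against 0.50 and 0.51, a difference of -0.005 (SE 0.040). A further clone, BG065554, is described in the table as similar to human HMGIC and carries the MGI identifier of Hmga2, but its symbol and gene ID belong to Cox16. It was not counted as a member, and its difference was -0.005 (SE 0.076).

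**Figure D3:**
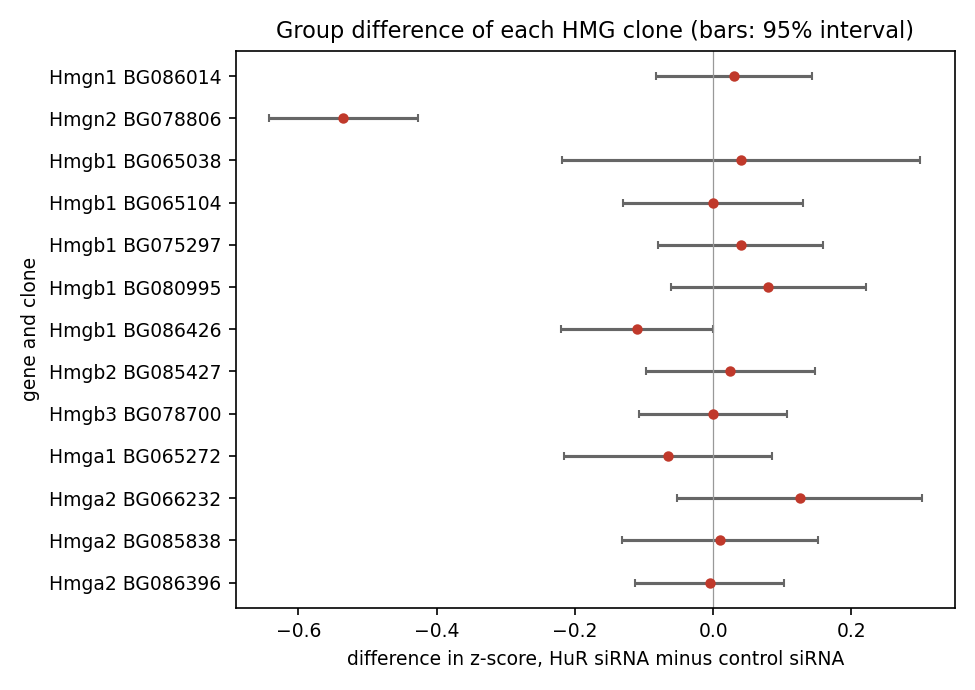
Difference in z-score (HuR siRNA minus control siRNA, horizontal axis) of each HMG clone with its 95% interval from limma. The interval of Hmgn2 runs from -0.643 to -0.427, that of Hmgb1 clone BG086426 ends just below 0, and the other 11 intervals include 0. The intervals are not adjusted for the number of clones, and no clone passed the adjusted threshold. Hmgn2 was chosen by this difference, so its interval is a description.

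Across the 13 clones, 0 passed the limma threshold of an adjusted p of 0.05, as did 0 of all 16825 clones (0%). At an unadjusted p under 0.05 stood 2 HMG clones, Hmgn2 and Hmgb1 clone BG086426, both lower with HuR siRNA, and 664 of all clones (3.95%, of which 2.3% of all clones were lower and 1.65% higher). The groups did not overlap at 5 HMG clones, 2 lower and 3 higher with HuR siRNA, against 27.6% of all clones (13.7% lower and 13.9% higher). Because the rule used this contrast, nothing is read from these counts. With 2 arrays per group, the smallest exact two-sided permutation p is 0.333.

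Without Hmgn2, 12 clones of 6 genes remained. Of these 7 were higher, 3 lower and 2 equal, with differences of -0.11 to 0.125 and a median of 0.0175, beside a median of 0 over all clones. Their median absolute difference was 0.035, against 0.04 over all clones. By replicate number, 5 of the 13 clones had both arrays numbered 1 above both arrays numbered 2, as had 21% of all clones, and 1 had the opposite order, as had 19.8%. The 5 were the clones of Hmgb2, Hmgb3 and Hmga1 and the Hmgb1 clones BG065038 and BG065104.

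**Figure D4:**
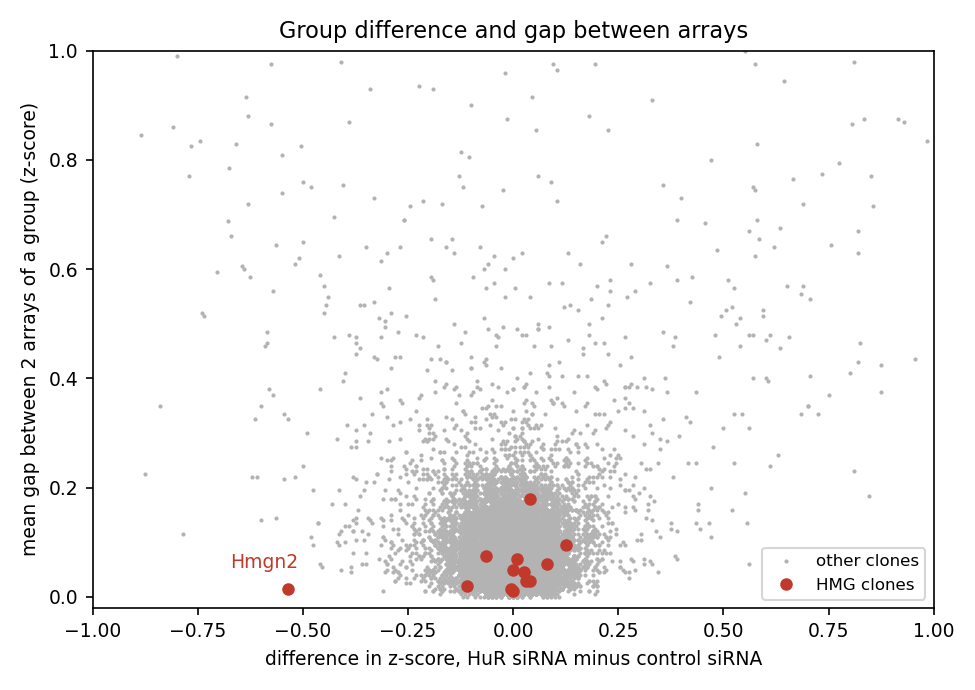
For each clone, the difference in z-score (HuR siRNA minus control siRNA, horizontal axis) against the mean gap between the 2 arrays of a group (vertical axis, z-score). HMG clones are red and the other clones grey, and 97 clones lie outside the axes. Hmgn2 stands at -0.535 with a small gap, and the other HMG clones lie between -0.11 and 0.125, within the grey cloud.

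The genes whose pattern over the 4 arrays was most like that of Hmgn2 were ranked by the root mean square distance between z-scores, each clone centred on its own mean. The closest were Zkscan1, a zinc finger gene (distance 0.0474), and Abi2, a regulator of actin assembly (0.0667). Cyth2, an exchange factor for ARF GTPases (0.0802), Cd44, the hyaluronan receptor (0.0815), and Fchsd2, a membrane-bending protein gene (0.0817), followed. Zkscan1 was at 0.13 and 0.19 with HuR siRNA against 0.59 and 0.64 with control siRNA, but its other clone differed by -0.01 (SE 0.042). Cyth2 was at 0.53 and 0.70 against 1.04 and 1.02. Abi2 (-1.52 and -1.37 against -0.81 and -0.95) and Cd44 (-0.91 and -0.80 against -0.47 and -0.47) lay below the section mean on all 4 arrays. So did Fchsd2, at -2.82 and -2.73 against -2.27 and -2.08. Whether such low values reflect detected RNA was not tested. The clones of Zkscan1 and Cyth2 came from source plate 57, and that of Hmgn2 did not. The likeness rests on 4 arrays and on the same contrast by which Hmgn2 was chosen.

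Other genes of chromatin and of HMG biology were counted by clone, beside 49.6% higher and 46.9% lower over all clones, and 0 of their clones passed the threshold. Of the other HMG-box proteins, 16 of 34 genes were measured by 21 clones, 6 higher and 15 lower, with a median difference of -0.025. The groups did not overlap at 3 of these clones, beside 27.6% of all clones. Sox6, a transcription factor that acts in muscle fibre type in mouse, was at -1.80 and -1.74 with HuR siRNA and at -1.50 and -1.56 with control siRNA. Its difference was -0.24 (SE 0.049, limma adjusted p = 0.99). Sox4, of the same family, differed by 0.08 (SE 0.058), and its groups overlapped.

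Linker histones, the proteins that HMGN proteins compete with, were measured by 3 clones of 2 genes, 2 higher and 1 lower, with a median of 0.005. The H1f0 clones differed by -0.03 (SE 0.070) and 0.02 (SE 0.064), and the first of them held the most frequent value of its section on all 4 arrays. H1f8, an oocyte linker histone, differed by 0.005 (SE 0.042). Core histones and variants had 14 clones of 6 genes, 5 higher and 9 lower, with a median of -0.0125. The groups did not overlap at 3 of these 14 clones, beside 27.6% of all clones. H2az1, which encodes the variant H2A.Z, had clones at -0.165 (SE 0.079), -0.05, -0.01 and 0.01. H3f3b, which encodes H3.3, had all 4 clones lower, at -0.205 (SE 0.106), -0.085 (SE 0.041), -0.045 and -0.02. The clones without overlap were the first and second of these and the H2az1 clone at -0.165.

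Histone chaperones and nucleosome remodellers were measured by 61 clones of 30 genes, 34 higher, 24 lower and 3 equal, with a median of 0.015. The groups did not overlap at 16 of these 61 clones, beside 27.6% of all clones. Npm1, the nucleolar chaperone nucleophosmin, was at 0.23 and 0.40 with HuR siRNA against -0.07 and 0.04 with control siRNA on 1 clone, a difference of 0.33 (SE 0.079, limma adjusted p = 0.99). Its other clone differed by 0.205 (SE 0.057). Atrx, a remodeller that deposits H3.3 with Daxx, had 7 clones with differences of -0.09 to 0.115.

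Genes around the HMGB proteins comprised receptors, redox partners and the SET complex, in which HMGB2 takes part. They had 17 clones of 11 genes, 13 higher and 4 lower, with a median of 0.02. The groups did not overlap at 5 of these 17 clones, beside 27.6% of all clones. Cd24a, a surface glycoprotein that binds HMGB1, differed by 0.105 (SE 0.044) and 0.065 (SE 0.048) on its clones. The clones of Set, which encodes the chaperone of the complex, were at -0.12 (SE 0.067), 0.03, 0.03 and 0.105.

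RNA-binding regulators of AU-rich and HMG mRNAs had 26 clones of 12 genes, 14 higher and 12 lower, with a median of 0.03. The groups did not overlap at 9 of these 26 clones, beside 27.6% of all clones. Celf1, a regulator of mRNA decay and splicing in muscle, was at 0.38 and 0.39 with HuR siRNA and at 0.27 and 0.23 with control siRNA on 1 clone. That clone differed by 0.135 (SE 0.042, limma adjusted p = 0.99) and its other clone by 0.065 (SE 0.062). Pcbp1, which binds C-rich RNA, differed by -0.11 (SE 0.042).

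The identity of the cells could not be checked on the defining markers, since of 12 myoblast and myotube markers only Mylpf, a fast myosin light chain gene, was matched to a clone. It was at -0.70 and -0.63 with HuR siRNA and at -0.85 and -0.73 with control siRNA. The 3 clones of blood, macrophage and endothelial markers (Cdh5, Lyz2 and Pecam1, of 8 listed) were all lower, and their summed z-scores were -1.57 and -1.66 with HuR siRNA and -1.32 and -1.06 with control siRNA. The labels name only the C2C12 line and no such cells. Whether these markers bear on the Hmgn2 difference was not tested. Fibroblast markers, some of which myoblasts also express, had 5 of 11 clones higher and 6 lower. Neural markers had 2 of 3 clones higher and 1 equal, adipocyte markers (Lpl) 2 of 3 higher, and the only cartilage or bone marker, Col2a1, differed by -0.10 (SE 0.041). In bulk RNA, fewer cells of a type and less RNA per cell cannot be told apart.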

How the data were processed

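The authors deposited z-scores, a score without a unit, for 16896 spots on each of 4 arrays. Per the labels' protocols, cDNA was labelled with 33P. How signals were scanned, corrected and transformed is not given in the sources used here. Values have 2 decimals and an SD of 1 in each of 2 sections of 8448 spots, and both deposited tables agree in all 67584 cells.

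Spots of a clone were averaged (16831 clone spots, 16825 clones), 52 empty spots and 13 without an accession were left out, and clones were named through gene IDs, accessions or symbols with RefSeq's GRCm38.p6 gene table (56.6% of clone spots). All clones were fitted together with limma 3.58.1 in R 4.3.3 (lmFit, eBayes, two-sided, no block, Benjamini-Hochberg over all clones, threshold 0.05). The steps were tested on 5 draws of simulated data with independent normal noise. The noise of each clone had the variance that the fit had already drawn towards that of all clones. Of 250 added differences of each size, 14 were called at 0.25, 207 at 0.5, 244 at 1 and 249 at 2. Noise on the real arrays may vary more between clones, so these counts do not give the power there. On the real arrays 177 clones differed by at least as much as Hmgn2, and 0 passed. False calls over the 5 draws numbered 78, a larger share of all calls than the threshold of 0.05 aims at. The number of arrays limits the precision (median SE 0.053). From each list the 2 genes of smallest unadjusted p were named, besides the HMG clones, Elavl1, Npm1, Khsrp and the 5 genes most like Hmgn2. Members, lists and alternatives were chosen with earlier results of these data known. No sequence is shown, since the sources used here hold no clone or protein sequence.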

Additional observations from a re-analysis of the deposited data

How the results depend on the processing

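The 13 differences were recomputed under 12 alternatives. Of 141 recomputed values 133 kept their direction, or were 0 in either fit, and stayed on the same side of the threshold. With the clones of a gene averaged, Hmgb1 differed by 0.01 and Hmga2 by 0.0433, whereas their clones of highest mean differed by -0.11 and -0.005, since the clones disagree. Leaving out each array in turn gave ranges of -0.065 to 0.145 for Hmgb1 clone BG065038 (below 0 without HuR siRNA replicate 1 or control siRNA replicate 2), -0.005 to 0.055 for Hmgb2 (below 0 without HuR siRNA replicate 1), -0.035 to 0.055 for Hmga2 clone BG085838 (below 0 without HuR siRNA replicate 2 or control siRNA replicate 1) and -0.015 to 0.005 for Hmga2 clone BG086396 (above 0 without HuR siRNA replicate 2). For Hmgn2 the range was -0.545 to -0.525, and for Hmga2 clone BG066232 0.05 to 0.2. With 2 arrays per group, these ranges follow from the gaps between arrays of a group and are not a separate check. When an array is left out, the lone array of its group is assumed to vary like the other group. Removal of grid medians moved Hmgb1 clone BG086426 to -0.0475, Hmgb2 to 0.105 and Hmgb1 clones BG065038 and BG075297 to 0, and Hmgn2 to -0.5225. It also moved Hmgb1 clone BG065104 from 0 to 0.0625. Removal of source plate medians moved Hmgb3 from 0 to -0.09. The count of clones past limma's threshold was 0 except with quantile normalization within sections, where 1 clone passed (limma adjusted p = 0.0339) and 0 HMG clones did, and the cause was not tested. The smallest adjusted p of any clone was 0.225 in the reported fit and 0.0339 to 0.937 over the alternatives. At an unadjusted p under 0.05 stood 664 clones, and 342 once the dimmer 50% of clones were left out, which also lowers the number tested. With the replicate block, 0 clones passed and 961 stood at an unadjusted p under 0.05. Deviations of same-numbered arrays correlated at 0.101 over clones, and with 2 pairs and no label for what a number marks, the numbers are not taken to pair the arrays. The series matrix held the same values and was not fitted again.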

Other observations

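The Npm1 clone BG074522 occupies grid 304 of the second section, the same grid number as the Hmgn2 clone in the first, and differed in the opposite direction (0.33, SE 0.079, against -0.535, SE 0.040). Grid numbers start anew in the second section, so a shared number is not a shared place on the array. Whether these differences are linked was not tested. The clone BG065554, assigned to Cox16 but described as similar to human HMGIC, came from source plate 32, as did the Hmgn2 clone, and was at -0.37 and -0.30 with HuR siRNA and at -0.42 and -0.24 with control siRNA.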
